A study of Mus musculus with 8 samples.

Results

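The complement genes C3, Cfb, Cfd, Cfp, Hc, C6 and C7 were examined in orthotopic mouse pancreatic tumors grown in WT mice and in C3-/- mice. They were chosen by name, as C3, the 3 genes of the alternative pathway and 3 genes of the terminal pathway, and are 7 of the 29968 genes in the table. All 7 passed the filter on low counts. Messenger RNA of 8 tumors was sequenced in bulk, 4 from WT mice (C57BL/6J) and 4 from C3-/- mice, which the study describes as C57BL/6J too. The comparison asks how loss of C3 in the host is reflected in tumor RNA. All mice were male, were 12 weeks old, and received 250000 KPC cells in 50 μL of PBS into the pancreas, with tumors taken at an endpoint of day 14. KPC FC1245 is a single cell line from a pancreatic tumor of a genetically engineered mouse. The same line, with its own intact C3 gene, was injected into both genotypes, so that only the host cells of a C3-/- tumor lack C3. Which stretch of C3 the host allele lacks is not given in the sources used here. Nothing in the labels says whether same-numbered tumors shared a surgery day or cage, and p-values measure the spread between these tumors.

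Complement is a cascade of plasma proteins in which C3 is the point where the classical, lectin and alternative pathways meet. In the alternative pathway, factor D (Cfd) cleaves factor B (Cfb) bound to C3b, and properdin (Cfp) stabilizes the resulting convertase, which cleaves more C3. The terminal pathway starts with cleavage of C5 (Hc in mice), after which C6 and C7 join C5b on the way to the membrane attack complex. The liver makes most circulating components, adipocytes are the main source of factor D, and myeloid cells make properdin.

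The tumors differed in depth and in tissue markers. Counts summed to 13.3 to 23.4 M per tumor. The 8 epithelial tumor cell markers summed to 2440 to 4910 FPKM, with none at 0 in any tumor. Markers of skeletal muscle summed to 9.6 to 1740 FPKM and those of pancreatic acinar cells to 21.2 to 1840, the highest acinar value being that of C3-/- 1. With each tumor left out in turn and in the other fits tried, C3 kept a log2 fold change of -1.55 to -1.19.

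C3 RNA was lower in C3-/- tumors but was present in each of them. As FPKM (fragments scaled by the authors to gene length and library size), C3 stood at 40.7, 82.2, 43.4 and 62.3 in WT tumors 1 to 4. In C3-/- tumors 1 to 4 it stood at 21.02, 25.6, 19.4 and 19.3. The lowest WT tumor lay above the highest C3-/- tumor, and the WT tumors were spread wider (57.2 ± 19.2, SD, n = 4) than the C3-/- tumors (21.3 ± 2.98, SD, n = 4). The C3-/- tumors held 1591 to 2387 counts of C3 and the WT tumors 2998 to 7623, so counting error was small beside the spread between tumors. Scaled to library size alone (CPM), the C3-/- mean was 37.5% of the WT mean.

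The log2 fold change of C3, C3-/- over WT, was -1.42 (SE 0.23), and 79 of 16610 genes tested (0.476%) had an absolute log2 fold change at least as large. In edgeR's quasi-likelihood test, fitted over all genes, C3 had an unadjusted p of 8.55e-05 and a Benjamini-Hochberg adjusted p of 0.933. DESeq2 on the same counts gave an adjusted p of 1.2e-05. The 2-sided exact permutation test over tumors gave p = 0.0286, the smallest that 4 tumors against 4 allow. C3 therefore passed the threshold of 0.05 in DESeq2 and missed it in edgeR after adjustment. C3 is the gene deleted in the host, so its comparison between genotypes also reads out the deletion, whose share was not tested. In a bulk tumor, fewer cells of a type and less RNA per cell cannot be told apart, and this holds for each gene below.

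**Figure D1:**
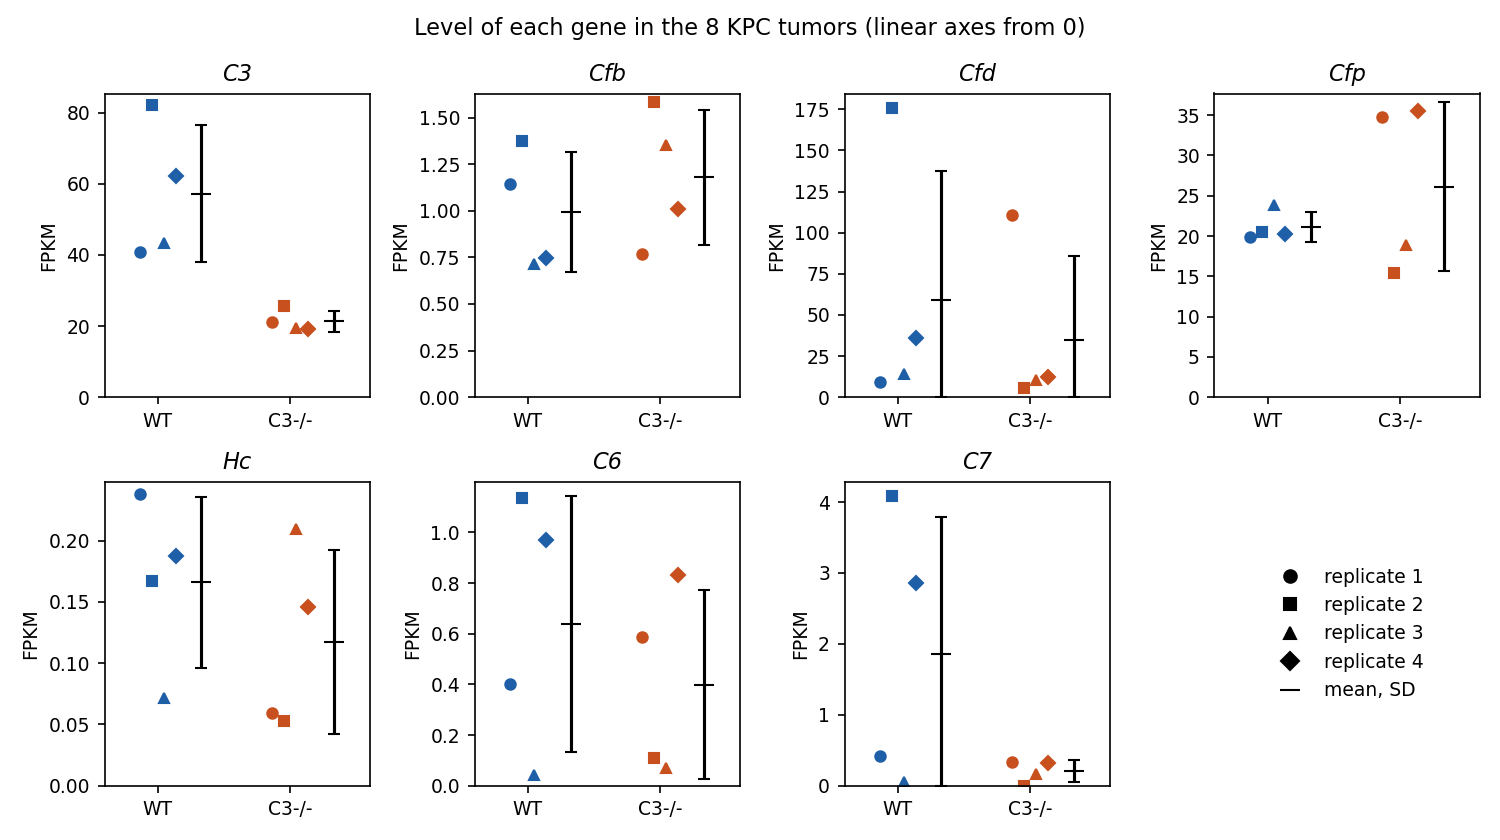
Level of C3, Cfb, Cfd, Cfp, Hc, C6 and C7 in the 8 tumors, as FPKM on linear axes that start at 0 and differ between panels. Blue points are the 4 WT tumors and orange points the 4 C3-/- tumors, with a marker shape for each replicate number, and black bars give the mean and SD of each genotype, cut at 0. The genotypes are separated for C3 and overlap for the other 6 genes, and 1 or 2 tumors stand far above the rest for Cfd and C7.

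C3, the gene deleted in the host, was the only 1 of the 7 genes whose genotypes did not overlap. In that direction, 241 of 16610 genes tested (1.45%) were also separated, and 378 (2.28%) were separated in the other, 3.73% in all. None of the 7 genes had an adjusted p below 0.05 in edgeR, where 0 of all 16610 genes did (0%). At an unadjusted p below 0.05, C3 and C7 were lower in C3-/- tumors, and over all genes 848 passed this mark (5.11%), 344 of them lower (2.07%). DESeq2 called 16 of 18864 genes (0.0848%), and of the 7 genes only C3 was among them. Of the 7 genes, 2 had a positive and 5 a negative log2 fold change, with a median of -0.66. Over all genes tested, 8304 were positive and 8306 negative, with a median of -5.84e-05.

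C3 (ENSMUSG00000024164) lies on the minus strand of chromosome 17 of mm39, from 57510970 to 57535136, with 41 exons in the GENCODE vM39 canonical transcript. A long noncoding gene on the opposite strand and a microRNA gene on the same strand are annotated over it. No link between promoter letters and the genotype difference of C3, a gene deleted in the C3-/- host, was tested. The upstream sequence of C3 is shown because it was the gene separated by genotype. It is the 250 bases before the RefSeq start (promoter table of build GRCm38.p6), written 5′ to 3′ on the gene's strand, and it matches mm39 at chr17:57535137-57535386. Capitals mark a match to the C/EBP motif TTGCNNAA, which begins 45 bases before the start.
C3 upstream: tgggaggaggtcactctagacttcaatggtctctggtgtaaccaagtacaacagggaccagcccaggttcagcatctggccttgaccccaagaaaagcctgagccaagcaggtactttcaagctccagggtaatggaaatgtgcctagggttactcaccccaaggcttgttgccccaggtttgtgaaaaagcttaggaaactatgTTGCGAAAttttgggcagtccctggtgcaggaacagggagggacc
C/EBP proteins are transcription factors of acute-phase and inflammatory genes. Searched on both strands, the C/EBP motif occurred in 9.56% of the 32851 upstream windows of this length. The C3 window held no match to NF-kB (GGGA, any 2 bases, TTCC, 1.21% of windows), STAT (TTCNNNGAA, 7.02%), ISRE (GAAA, any 2 bases, GAAA, 2.98%), AP-1 (TGANTCA, 6.75%) or TATA box letters (TATAAA, 12.4%). A match describes letters and is not evidence of binding.

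Among the alternative pathway genes, none had an adjusted p below 0.05, and their spread over tumors differed widely. Cfb, the serine protease that forms the C3 convertase with C3b, was a low transcript. Its FPKM was 1.14, 1.38, 0.712 and 0.744 in WT tumors and 0.769, 1.58, 1.35 and 1.01 in C3-/- tumors. The genotypes overlapped over most of their range, and the highest tumor, C3-/- 2, was 2.22 times the lowest. Cfb's log2 fold change was 0.25 (SE 0.33, edgeR adjusted p 0.999), and the exact permutation p was 0.457. It was 0.08 to 0.45 with each tumor left out, lowest without C3-/- 2 and highest without WT 2. These values rest on 27 to 81 counts per tumor. Cfb (ENSMUSG00000090231) lies on chromosome 17 from 35075350 to 35081494, minus strand, 18 exons. GENCODE vM39 places a same-strand gene, Gm20547, and on the opposite strand Nelfe over it, and the strand setting of the counting is not given in the sources used here, so its counts are uncertain.

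Cfd, the protease that activates factor B and is known as the adipocyte product adipsin, varied most from tumor to tumor among the genes with a count in every tumor. Its FPKM was 9.51, 176, 14.1 and 36.2 in WT tumors and 111, 5.57, 10.5 and 12.4 in C3-/- tumors. WT 2 and C3-/- 1 stood far above the other 6 tumors, and the highest value was 31.6 times the lowest. The coefficient of variation was 134% among WT tumors and 146% among C3-/- tumors. The genotype difference of Cfd, -0.74 (SE 1.07) as a log2 fold change, had an adjusted p of 0.999 (edgeR) and an exact permutation p of 0.514. The direction rested on single tumors: without WT 2 the log2 fold change was 0.80, and without C3-/- 1 it was -2.63.

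All 10 listed adipocyte markers were highest in WT 2, and 7 of them had C3-/- 1 as the next highest tumor, while Plin4, Lipe and Pck1 did not. Adipoq, which encodes the fat hormone adiponectin, had an FPKM of 32.2 in WT 2, 6.50 in C3-/- 1 and 0.162 to 2.13 in the other 6 tumors. Retn, which encodes the adipocyte hormone resistin, had 14.3 in WT 2, 2.66 in C3-/- 1 and 0.236 to 0.985 in the others. Across the list of 10 adipocyte markers, the summed FPKM was 28.6 to 205 in WT tumors and 20.7 to 52.4 in C3-/- tumors. Of the 7 that were tested, 0 had a positive and 7 a negative log2 fold change (median -1.33), and 1, Pck1, had an unadjusted p below 0.05 (2.07% of all genes were lower at this mark). No marker of the list was at 0 in all tumors, and 2, Lep and Aqp7, were at 0 in some. Without WT 2, 2 of the 7 were positive and 5 negative, with a median of -0.06 and 0 below this mark. With each of the other tumors left out, an alternative chosen after the values were seen, all tested markers were negative and 1 to 4 were below it, 4 without C3-/- 1 (median -1.70) or WT 3 (median -1.92) and 3 without WT 1 or WT 4. Their part in the level of Cfd was not tested. Among genes with a mean of at least 1 log2 CPM, those most like Cfd over the 8 tumors were Pde1b (Pearson r = 0.955), Jdp2 (0.949) and Hp (0.942). Hp, which encodes haptoglobin, ran at 392 in WT 2, 90.7 in C3-/- 1 and at most 51.0 FPKM in the other 6 tumors.

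Cfd (ENSMUSG00000061780) lies on chromosome 10 from 79726687 to 79728489, plus strand, 5 exons, and overlaps no other annotated gene. Its upstream 250 bases (RefSeq, GRCm38.p6, matching chr10:79726437-79726686 of mm39) are shown because it varied 31.6-fold over the tumors. None of the 6 motifs searched occurred in this window, so no letters are in capitals.
Cfd upstream: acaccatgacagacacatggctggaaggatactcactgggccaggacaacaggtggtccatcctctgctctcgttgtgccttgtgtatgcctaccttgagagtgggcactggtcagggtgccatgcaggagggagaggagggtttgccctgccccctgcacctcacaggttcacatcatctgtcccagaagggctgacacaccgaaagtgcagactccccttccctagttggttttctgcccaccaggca
The window had 57.6% G and C, against 52.0% in the C3 window.

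Cfp, which encodes properdin, the stabilizer of the alternative pathway convertase, was narrow in WT tumors and wide in C3-/- tumors. WT tumors had FPKM values of 19.9, 20.5, 23.9 and 20.3 (coefficient of variation 8.99%). C3-/- tumors had 34.8, 15.5, 18.8 and 35.5 (40.3%). C3-/- tumors 1 and 4 lay above every WT tumor and C3-/- tumors 2 and 3 below every WT tumor. As a log2 fold change the genotype difference was 0.31 (SE 0.26, edgeR adjusted p 0.999, exact permutation p 0.429). It was 0.13 without C3-/- 4, 0.14 without C3-/- 1 and 0.50 without C3-/- 2. The difference in spread between genotypes was not tested.

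Of 10 listed macrophage markers, 4 (Adgre1, Csf1r, Fcgr1 and Lyz2) shared with Cfp C3-/- tumors 1 and 4 as the 2 highest. The other 6 did not, and Mertk, a receptor for dying cells, was lowest in C3-/- 1, at 2.36 FPKM against 3.44 to 5.72 elsewhere. Lyz2, which encodes lysozyme of myeloid cells, was the gene most like Cfp (r = 0.979 over 8 tumors), ahead of AB124611 (0.977) and Tmem106a (0.971). Its FPKM was 377 to 498 in WT tumors, 638 and 674 in C3-/- tumors 1 and 4, and 303 and 416 in C3-/- tumors 2 and 3. The summed FPKM of the 10 macrophage markers was 651 to 894 in WT tumors and 551 to 1100 in C3-/- tumors, and none of them was at 0 in any tumor. All 10 were tested, 6 with a positive and 4 with a negative log2 fold change (median 0.10), and 0 had an unadjusted p below 0.05, beside 5.11% of all genes. Of 8 listed neutrophil markers, 7 were tested, 5 positive and 2 negative (median 0.39), and 2 (Csf3r and Ngp) were higher at an unadjusted p below 0.05, beside 3.03% of all genes. Ngp, a neutrophil granule gene, was separated by genotype, as were 2.28% of all genes in this direction, with 20.1 FPKM in C3-/- 1, 1.79 to 2.78 in the other C3-/- tumors and 0.245 to 1.65 in WT tumors. The part of macrophages and neutrophils in the level of Cfp was not tested. Cfp (ENSMUSG00000001128) lies on chromosome X from 20791693 to 20797794, minus strand, 9 exons, with a long noncoding gene annotated on the opposite strand.

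**Figure D2:**
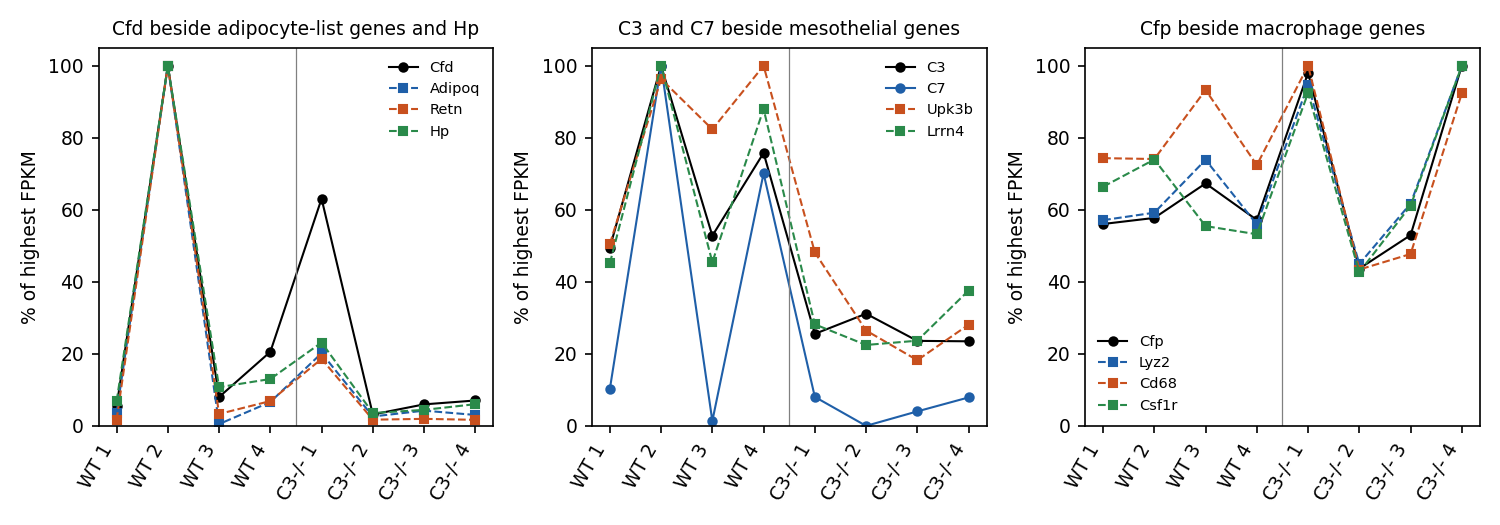
Levels in the 8 tumors as percent of each gene's highest FPKM (linear axis from 0), with the WT tumors left and the C3-/- tumors right of the grey line. Circles are complement genes and squares are marker genes or a gene of similar pattern. Cfd, Adipoq, Retn and Hp peak together in WT 2 with a lower rise in C3-/- 1, C3 and C7 are shown with the mesothelial genes Upk3b and Lrrn4, and Cfp is shown with the macrophage markers Lyz2, Cd68 and Csf1r.

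Of the 7 genes, those of the terminal pathway had the lowest median FPKM over all tumors. By mean, C7 was above Cfb in WT tumors (1.85 against 0.994 FPKM) and below it in C3-/- tumors (0.204 against 1.18). Within single tumors, C7 exceeded Cfb in WT 2 and WT 4, and C6 exceeded Cfb in WT 4. Hc encodes C5, whose cleavage releases the attractant C5a and starts membrane attack. Its FPKM was 0.238, 0.167, 0.0714 and 0.188 in WT tumors and 0.0590, 0.0529, 0.210 and 0.146 in C3-/- tumors. WT 3 fell among the C3-/- values and C3-/- 3 among the WT values. Hc had a log2 fold change of -0.53 (SE 0.53, edgeR adjusted p 0.999) and an exact permutation p of 0.257. With each tumor left out the log2 fold change was -0.95 (without C3-/- 3) to -0.29 (without C3-/- 2), and on the log2(FPKM + 1) scale it was -0.06. The values of Hc rest on 6 to 28 counts per tumor. Hc (ENSMUSG00000026874) lies on chromosome 2 from 34873343 to 34951450, minus strand, 41 exons, with 2 long noncoding genes annotated on the opposite strand.

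C6 encodes the component that binds C5b and keeps it in an active form. Its FPKM was 0.402, 1.14, 0.0419 and 0.969 in WT tumors and 0.585, 0.109, 0.0705 and 0.833 in C3-/- tumors. Each genotype held both high and low tumors, and the highest value was 27.1 times the lowest. For C6 the log2 fold change came to -0.66 (SE 0.87, edgeR adjusted p 0.999, exact permutation p 0.743). It was -0.26 without WT 2 and -1.29 without C3-/- 4. Counts ran from 2 to 82. C6 (ENSMUSG00000022181) lies on chromosome 15 from 4756657 to 4844449, plus strand, 16 exons.

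C7, which anchors the growing C5b-7 complex in the membrane, had the largest fold change of the 7 genes, with 2 WT tumors far above the others. Its FPKM was 0.418, 4.08, 0.0557 and 2.86 in WT tumors and 0.328, 0, 0.164 and 0.322 in C3-/- tumors. The counts were 18, 146, 2 and 182 in WT tumors and 19, 0, 7 and 16 in C3-/- tumors. WT 2 and WT 4 stood high, WT 1 lay just above the C3-/- tumors, and WT 3 lay below 3 of them, so the genotypes overlapped. In C3-/- 2 no fragment was counted, which allows a level of up to 0.0619 FPKM (3 counts, counting error only).

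With a log2 fold change of -3.15 (SE 1.10), C7 was near the extreme of the table: 5 of 16610 genes tested (0.0301%) had an absolute log2 fold change at least as large. Its unadjusted p in edgeR was 0.0169 and its adjusted p was 0.96, against 0.751 in DESeq2. The exact permutation p was 0.2. Fitted without a filter, in other tools, on other scales or with a tumor left out, the log2 fold change stayed negative, from -3.55 to -0.96, and was -2.45 without WT 2. The genes most like C7 over the 8 tumors were Serpina3m, a serine protease inhibitor gene (r = 0.978), Cd36, which encodes a fatty acid receptor (0.971), and Fmo1, a monooxygenase gene (0.956). Cd36 stood at 27.4 and 13.9 FPKM in WT 2 and WT 4, and at 1.82 to 8.71 in the other 6 tumors.

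C7 (ENSMUSG00000079105) lies on chromosome 15 from 5018244 to 5093222, minus strand, 18 exons, with 3 noncoding genes annotated on the opposite strand. The upstream 250 bases (RefSeq, GRCm38.p6, matching chr15:5093256-5093505 of mm39) are shown because C7 had the largest fold change of the 7 genes. Capitals mark a match to the STAT motif TTCNNNGAA, which begins 164 bases before the start, and the TATA box letters read on the opposite strand (TTTATA), which begin 6 bases before it.
C7 upstream: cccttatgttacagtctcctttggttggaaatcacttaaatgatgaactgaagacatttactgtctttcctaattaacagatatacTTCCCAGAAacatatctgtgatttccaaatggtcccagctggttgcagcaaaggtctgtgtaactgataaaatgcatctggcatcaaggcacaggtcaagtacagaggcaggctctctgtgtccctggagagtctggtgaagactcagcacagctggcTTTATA
The C7 window held no C/EBP match, and the C3 window no STAT match. Of the 7 genes, 6 had an entry in the promoter table and Cfb had none. In the windows of C6 and Cfp none of the 6 motifs occurred, and in that of Hc the TATA box letters occurred once, 239 bases before the start.

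Among the mesothelial markers, 2 were separated by genotype as C3 was, and 0 had an adjusted p below 0.05. Upk3b, a uroplakin gene of the mesothelium, averaged 1.12 ± 0.306 FPKM in the WT group against 0.411 ± 0.173 in C3-/- (SD, n = 4 each), and Lrrn4, a membrane protein gene of mesothelial cells, 0.645 ± 0.264 against 0.259 ± 0.0636. Their log2 fold changes were -1.43 (SE 0.36) and -1.30 (SE 0.37), each at an edgeR adjusted p of 0.933. The genotypes did not overlap for these 2 genes, as for 1.45% of all genes in this direction, and overlapped for the other 5 tested, among them Msln (log2 fold change -0.08, SE 0.16). Of 8 listed mesothelial markers, 7 were tested, 0 with a positive and 7 with a negative log2 fold change (median -0.91), and 3 had an unadjusted p below 0.05, against 2.07% of all genes in this direction. With each tumor left out in turn, an alternative chosen after the values were seen, 2 to 5 were below this mark, 5 without WT 1. Without C3-/- 4, 1 of the 7 was positive and 6 were negative. The summed FPKM of the list was 535 to 886 in WT tumors and 490 to 1010 in C3-/- tumors. Most of it came from Krt19 and Msln, and no marker was at 0 in any tumor. Krt19 is also counted among the epithelial tumor cell markers. In WT 2, where C7 was 4.08 FPKM, Upk3b was 1.31 and Lrrn4 0.926. In WT 3, where C7 was 0.0557, they were 1.12 and 0.421. The part of mesothelial cells in the levels of C3 and C7 was not tested.

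Hepatocytes are the usual source of circulating C3. Of 12 listed hepatocyte markers, 9 were tested, 2 with a positive and 7 with a negative log2 fold change (median -0.68), and 3 (Alb, Fgb and Ahsg) were lower at an unadjusted p below 0.05, beside 2.07% of all genes. None of the 9 had an adjusted p below 0.05. Ahsg was separated by genotype, as were 1.45% of all genes in this direction. Alb, Fgb and Ahsg were highest in WT 4. Without that tumor, 1 (Ahsg) was below the unadjusted mark of 0.05, and the median of the list was -0.25. Without C3-/- 1, 5 were below it and the median was -2.01, and with each of the other 6 tumors left out 4 were below it. Alb, which encodes albumin, was at 15.1 FPKM in WT 4, where C3 was 62.3, and at 0.0639 in WT 2, where C3 was 82.2. The summed level of the list was 62.5 to 417 FPKM in WT tumors and 43.2 to 124 in C3-/- tumors. Hp made up 392 of 417 in WT 2 and 90.7 of 124 in C3-/- 1, and 4 markers were at 0 in some tumors. Fibroblast markers (10 tested, 3 positive and 7 negative, median -0.13) and epithelial tumor cell markers (8 tested, 0 positive and 8 negative, median -0.22) had 0 genes with an unadjusted p below 0.05, beside 5.11% of all genes. The part of these cells in the complement levels was not tested.

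**Figure D3:**
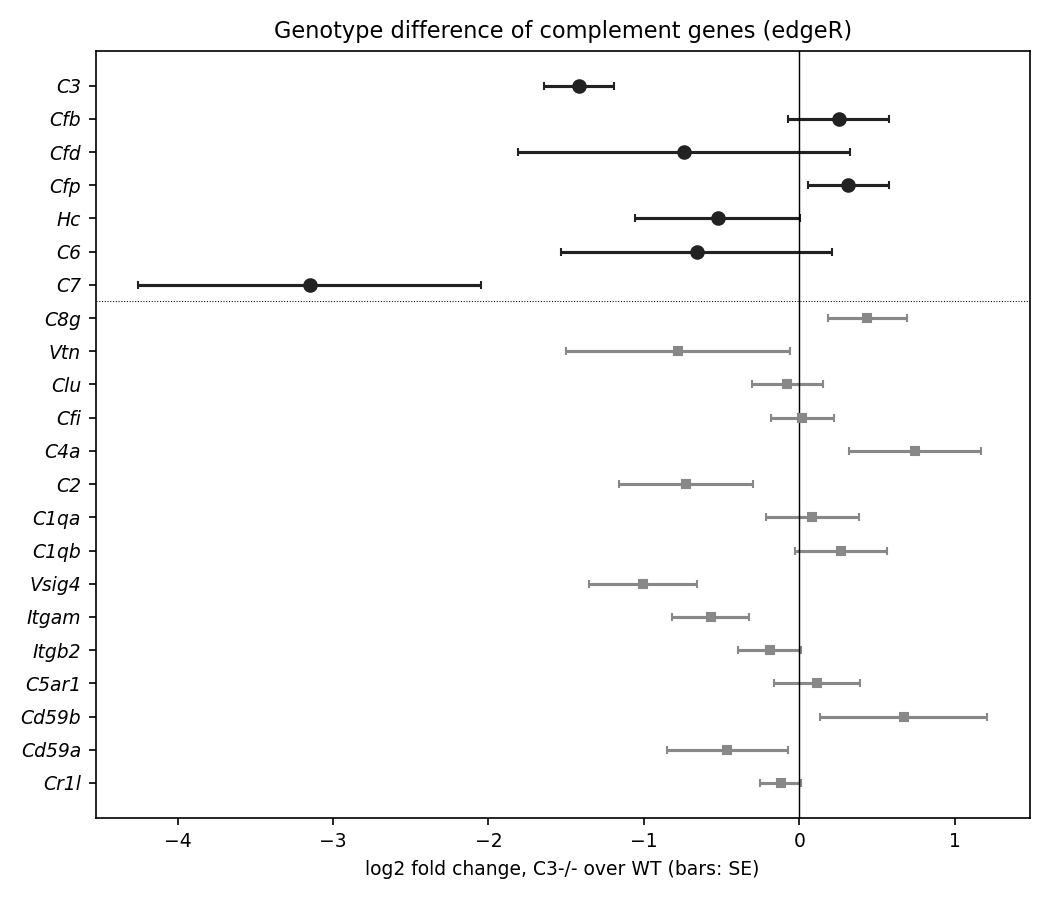
Log2 fold change, C3-/- over WT, of the 7 complement genes (black circles) and of other complement genes named in the text (grey squares), from edgeR's fit to the counts of 8 tumors. Bars are 1 SE on each side, and the vertical line marks no difference. C3 lies at -1.42 with a short bar and C7 at -3.15 with a long one, while the bars of Cfb, Cfd, Hc and C6 cross 0.

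Compared per length, the 7 genes fell into a high and a low set. The median FPKM over the 8 tumors was 33.2 for C3, 20.4 for Cfp, 13.3 for Cfd, 1.08 for Cfb, 0.494 for C6, 0.325 for C7 and 0.157 for Hc. Among the 16610 genes tested, C3 exceeded 90.9%, Cfp 83.7% and Cfd 74.6%, while Cfb exceeded 21.7%, C6 11.2%, C7 6.86% and Hc 2.01%. Of the 6 neighbour pairs in this order, 1 held beyond the spread over tumors. Cfd exceeded Cfb in 8 of 8 tumors by a mean of 4.32 on the log2(FPKM + 0.1) scale (SD 1.94), with a 2-sided exact sign-flip permutation p of 0.00781, the smallest that 8 tumors allow, and 0.0469 after Benjamini-Hochberg adjustment over the 6 pairs. With a tumor left out, 0 pairs passed in 7 of 8 cases, and 2 passed without WT 4. The smallest p that 7 tumors allow is larger. Cfb exceeded C6 in 7 of 8 tumors (exact p 0.0312, adjusted 0.0938).

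The remaining neighbours did not differ beyond their spread. C3 exceeded Cfp in 6 of 8 tumors (exact p 0.133, adjusted 0.199), 4 of 4 in WT and 2 of 4 in C3-/- mice. The mean FPKM of Cfp was below that of C3 in WT tumors (21.1 against 57.2) and above it in C3-/- tumors (26.1 against 21.3). The rank of C3 over all 8 tumors therefore pools genotypes that differ. The mean of Cfd was above that of C3 in both genotypes (58.9, SD 78.8, in WT and 34.9, SD 50.8, in C3-/-), with 176 FPKM in WT 2 and 111 in C3-/- 1. Over all tumors, Cfp exceeded Cfd in 5 of 8. C6 exceeded C7 in 3 of 8 tumors and C7 exceeded Hc in 5 of 8 (adjusted exact p 0.853 and 0.199). C3 was the highest of the 7 in WT tumors 1, 3 and 4 and in C3-/- tumors 2 and 3, Cfd in WT 2 and C3-/- 1, and Cfp in C3-/- 4. The order of the medians was the same with each of the 8 tumors left out in turn.

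**Figure D4:**
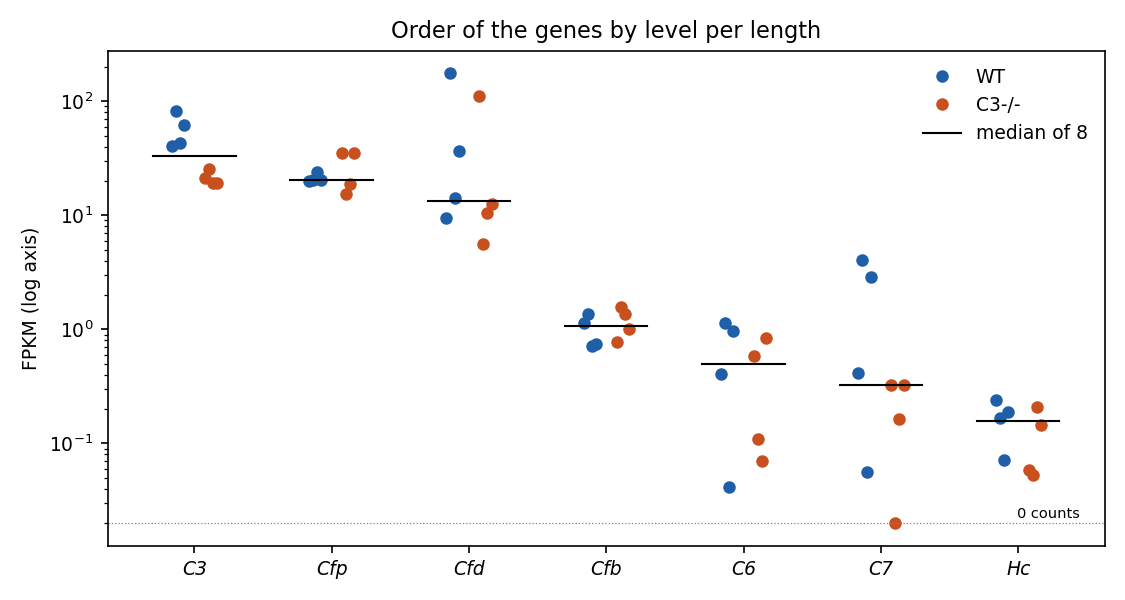
FPKM of the 7 complement genes in the 8 tumors on a log axis, in the order of their medians (black lines), with WT tumors in blue and C3-/- tumors in orange. The dotted line marks the tumor without a count of C7. C3, Cfp and Cfd have medians from 13.3 to 33.2, and Cfb, C6, C7 and Hc from 0.157 to 1.08.

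The genes most like C3 and Cfb were not complement genes. For C3 they were Dlat, a subunit gene of pyruvate dehydrogenase, Osbpl9 and Cd300lg, ranked by Pearson r over 8 tumors. All 3 had lower values in C3-/- tumors, and their r is not given because a genotype difference alone can make it high. Dlat ranged only from 13.8 to 17.7 FPKM, whereas C3 spanned 4.26-fold. For Cfb they were Gata6os (r = 0.98), Map2 (0.976) and Mbd6 (0.975), for Hc Specc1 (0.977), Rasgrf2 (0.965) and Cobl (0.948), and for C6 Kif7 (0.97), Plekhg5 (0.949) and Clec10a (0.945). These values of r, over 8 tumors and among 13693 genes compared, are a description with no test.

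Among the 7 genes themselves, 21 pairs were compared and 0 had an adjusted p below 0.05 for Pearson's r or Spearman's rho. C6 and C7 were the closest pair, with r = 0.822 (exact permutation p 0.0105, Benjamini-Hochberg adjusted 0.221) and rho = 0.833 (exact permutation p 0.0154, adjusted 0.323). Without the 2 tumors farthest from the median of C6, r was 0.898, and with each gene centred within genotype it was 0.865. Both genes lie on chromosome 15, 173794 bases apart, with 1 gene of the table between them. Cfd and C7 had r = 0.727 (exact permutation p 0.0424, adjusted 0.445) and rho = 0.643 (exact permutation p 0.0962, adjusted 0.556), and r = 0.846 without the 2 tumors farthest from the median of Cfd. Cfb and Cfp had the lowest value, r = -0.58 (exact permutation p 0.138, adjusted 0.484), with rho = -0.60 (exact permutation p 0.132, adjusted 0.556), and r = -0.48 without the 2 tumors farthest from the median of Cfb. Likewise, no pooled value is given for C3, whose tumors fell into separate ranges by genotype.

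**Figure D5:**
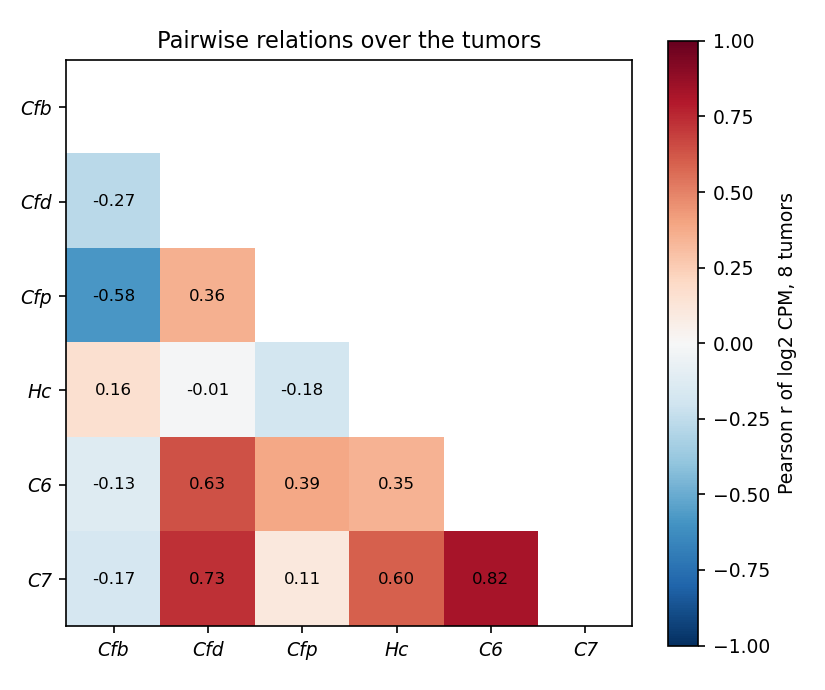
Pearson r of log2 CPM over the 8 tumors for each pair among Cfb, Cfd, Cfp, Hc, C6 and C7, with blue for negative and red for positive values. C3 is left out because its genotypes did not overlap. C6 and C7 have the highest value, 0.82, and Cfb and Cfp the lowest, -0.58.

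The rest of the cascade showed no gene with an adjusted p below 0.05 in edgeR or DESeq2. Of 46 other complement genes listed, 41 were in the table and 30 were tested, 10 with a positive and 20 with a negative log2 fold change (median -0.11), and the genotypes overlapped for all 30. At an unadjusted p below 0.05, 2 were lower in C3-/- tumors and 0 higher, beside 2.07% and 3.03% of all genes. Both encode receptors for C3 fragments. Vsig4, the receptor CRIg of resident macrophages, averaged 3.86 ± 1.27 FPKM in the WT group against 1.90 ± 0.690 in C3-/- (SD, n = 4 each). Its log2 fold change of -1.01 (SE 0.35) had an edgeR adjusted p of 0.96. Itgam, the CD11b chain of complement receptor 3, averaged 7.56 ± 2.30 against 5.06 ± 1.30 FPKM (SD, n = 4 each), and its log2 fold change of -0.57 (SE 0.25) had an edgeR adjusted p of 0.971. Of the 7 receptors tested, 2 had a positive and 5 a negative log2 fold change (median -0.11). Itgb2, the partner chain of Itgam, had a log2 fold change of -0.19 (SE 0.20), and the C5a receptor gene C5ar1 had 0.11 (SE 0.28).

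Clu, which encodes the terminal pathway inhibitor clusterin, had by far the highest level of the complement genes. It averaged 3850 ± 1020 FPKM in the WT group against 3630 ± 661 in C3-/- (SD, n = 4 each), for a log2 fold change of -0.08 (SE 0.23). Cfi, the protease that cleaves C3b, had 144 ± 36.3 and 146 ± 28.2 FPKM (SD, n = 4 each), above C3 itself in both genotypes, with a log2 fold change of 0.02 (SE 0.20). Vtn, which encodes vitronectin, had a log2 fold change of -0.78 (SE 0.72). Of 6 soluble regulators tested, 2 had a positive and 4 a negative log2 fold change (median -0.05). Of 5 membrane regulators tested, 1 was positive and 4 were negative (median -0.11), among them Cr1l, which encodes the rodent convertase inhibitor Crry, at -0.12 (SE 0.13), Cd59a at -0.46 (SE 0.39) and its paralog Cd59b at 0.67 (SE 0.54).

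In the classical and lectin pathways, 11 genes were tested, 4 with a positive and 7 with a negative log2 fold change (median -0.13). C1qa and C1qb, which encode chains of the recognition molecule C1q, averaged 149 ± 36.1 and 129 ± 26.8 FPKM in the WT group against 157 ± 72.2 and 155 ± 74.4 in C3-/- (SD, n = 4 each). C2, the counterpart of factor B in the classical convertase, had a log2 fold change of -0.73 (SE 0.43), and C4a, a close paralog of C4b between which reads can be split, had 0.74 (SE 0.42). In the terminal pathway, C8g was the only other component tested, with 1.92 ± 0.184 FPKM in the WT group against 2.59 ± 0.620 in C3-/- (SD, n = 4 each), for a log2 fold change of 0.44 (SE 0.26). C8a, C8b and C9, which with C8g complete the membrane attack complex, had few counts and were not tested. C8a had 0 to 14, C8b 0 to 1 and C9 0 to 4 counts per tumor, and C8a and C9 each had 0 in all 4 C3-/- tumors and in 2 of 4 WT tumors.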

How the data were processed

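The authors extracted RNA from homogenized tumors, selected poly-A RNA and sequenced read pairs, and deposited whole-number counts per gene and FPKM values (fragments scaled to gene length and library size) on mm39. The study's methods name STAR and HTSeq, and the submitters' processing notes name HISAT2 2.0.5 and DESeq2 1.20.0. A strand setting is not given in the sources used here. Columns of normalized counts (10, including group means) and the authors' fold changes and p-values were not used.

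Counts summed to 13.3 to 23.4 M per tumor. No 2 tumors were repeats of 1 library (chi-square per gene at least 14.8). Genes were tested with edgeR 4.0.16 (filterByExpr, minimum count 10, TMM, glmQLFit, glmQLFTest, Benjamini-Hochberg over 16610 genes, threshold 0.05) in R 4.3.3, after checks on simulated data. The filter left at most 0.217% of a tumor's counts outside. Exact tests of single genes used log2(CPM + 0.1) in scipy 1.17.1, and levels between genes used the authors' FPKM. Alternatives were DESeq2 1.42.0, limma-voom 3.58.1, DESeq2's size factors, other filters, robust fitting, a replicate block, protein-coding genes, FPKM scales and each tumor left out. Same-numbered tumors had residual correlations of -0.03, 0.49, -0.36 and 0.59, so the numbers were not taken as pairs.

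The members and lists were chosen with earlier results of these data known. Named were all 7 genes, the 3 tested genes with the highest Pearson r to each (prior count 2, mean of at least 1 log2 CPM), up to 4 per complement list by smallest p and highest FPKM, and marker genes beside a member. 1 gene that this rule names is not reported here. Promoter sequences are from RefSeq. No molecular identifiers were used, so counts are of fragments.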

Additional observations from a re-analysis of the deposited data

Results flagged for a closer look

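Marker lists and the 7 complement genes were searched, in each genotype of 4 tumors, for a tumor whose gap to the nearest other tumor was most of the genotype's range (over Dixon's critical value for 4). Of 44 groups searched, 2 held such a tumor, where chance gives 2.2. Both were C3-/- 1. Its adipocyte markers averaged 1.07 on the log2(FPKM + 0.1) scale, against -0.52 to -0.28 in the other C3-/- tumors, and Cfd was also highest there among C3-/- tumors, at 111 FPKM. Its acinar markers, genes of the digestive enzymes of normal pancreas, averaged 5.85, against -1.13 to -0.35.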

How the results depend on the processing

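The number of genes called in the whole table was 0 in edgeR, 16 in DESeq2 and 0 to 4 with each tumor left out, with 4 without C3-/- replicate 1. Of the 7 complement genes 0 were called in edgeR and 1 (C3) in DESeq2, where its log2 fold change was -1.42. The log2 fold change of C3 was -1.55 to -1.19 over 18 alternatives. Cfd turned from -0.74 to 0.80 without WT replicate 2 (adjusted p 0.982 in edgeR), the only change of direction among the 7 genes, and was -2.63 without C3-/- replicate 1. The cause was not tested. The number of neighbour pairs whose order passed the test was 1, and 0 to 2 with each tumor left out (2 without WT replicate 4, 0 in the other 7), where the smallest p that 7 tumors allow is larger. The counts for the other complement genes and for pairs of genes were 0 under every alternative run. With the replicate number as a block, 0 of the 7 genes were called and C7 had a log2 fold change of -2.36, and the pairing of same-numbered tumors was not borne out by their residual correlations (-0.36 to 0.59). Requiring at least 10 counts in every tumor left no value for Hc, C6 and C7. Hc had 6 to 28 counts per tumor and C7 under 20 in 6 of 8, so counting error adds to their spread between tumors.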
